A study of Mus musculus with 10 samples.

Results

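The protein phosphatases PP1 to PP6 are serine and threonine phosphatases built from a small number of catalytic subunits and many scaffold and regulatory subunits. Their subunit genes were taken as the mouse protein-coding genes whose symbol starts with Ppp, a number from 1 to 6, and c (catalytic) or r (scaffold or regulatory). The rule found 77 genes among 21774 protein-coding genes annotated by RefSeq on the mouse assembly GRCm38.p6 (mm10). Of these, 12 encode catalytic subunits, 2 encode the scaffold of PP2A and 63 encode regulatory subunits. By phosphatase, 45 belong to PP1, 16 to PP2A, 5 to PP3 (calcineurin), 6 to PP4, 1 to PP5 and 4 to PP6.

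The genes were looked up in lists of transcription start sites (TSSs) enriched for ARID2, a subunit specific to the PBAF form of the SWI/SNF chromatin remodeler, measured by CUT&RUN. In this assay an antibody directs a nuclease to its target, and the DNA fragments cut free are sequenced. CD1 mice received an inhibitor of retinoic acid synthesis from postnatal day 1 to day 10 and 1 injection of retinoic acid at day 11, which starts spermatogenesis in all tubules together. Spermatogenic cells enriched for spermatocytes in prophase-I and metaphase-I were isolated at P28 and at P28.5, which is 17 and 17.5 days after retinoic acid. At each age there were 2 ARID2 libraries, 2 BRG1 libraries made with different antibodies, and 1 control library without IgG. No genotype or second treatment separated the groups, so that age was the variable compared. Cell make-up and peak calls differed with age. The authors report more round spermatids, fewer spermatocytes of early prophase-I and far fewer called ARID2 peaks at P28.5. The lists hold 11553 rows at P28 and 8514 at P28.5. What these differences contribute to a listing at a single age was not tested. The authors averaged the ARID2 libraries of an age and grouped TSSs by k-means, and the deposited list of an age holds the positions and gene names of the ARID2-enriched cluster (cluster-1, Cl-1). A gene was called listed when a row carried its name. The first coordinate of a row was taken as its position, and its end coordinate was not read. The lists hold no signal, depth or replicate values, so that the intervals below are 95% Wilson intervals for counting error alone. The tracks of single libraries were not analysed here, and no difference between the ages was tested against their spread.

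Protein phosphatases reverse the phosphorylation that drives cells through meiotic divisions. A PP1 or PP2A catalytic subunit has little choice of substrate by itself, and the regulatory subunit bound to it sets where it acts and what it dephosphorylates. In the testis a splice form of the PP1 subunit encoded by Ppp1cc is the main PP1 of sperm and is needed for male fertility, PP2A bound to shugoshin protects centromeric cohesin in meiosis I, and calcineurin made of the testis subunits encoded by Ppp3cc and Ppp3r2 is needed for sperm motility.

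A minority of the subunit genes was listed at each age. Of those listed at P28.5, 72.2% had also been listed at P28, close to the 73.1% over all protein-coding genes. At P28, 20 of 77 genes were in Cl-1 (26.0%, 95% Wilson interval 17.5% to 36.7%), against 16.8% of all protein-coding genes. At P28.5, 18 of 77 were in Cl-1 (23.4%, interval 15.3% to 34.0%), against 11.6% of all protein-coding genes. Both intervals lay above the share over all genes. The subunit genes also had CpG-rich promoters: 67.5% of them were in the upper 2 quintiles of the CpG ratio (observed over expected CpGs, in 500 bp up- and downstream of a gene's outermost 5′ end), where by construction 40.0% of all genes lie. When the share over all genes was weighted to the strands and CpG quintiles of the subunit genes, it was 23.4% at P28 and 19.3% at P28.5. These weighted shares lay within the intervals of the subunit genes, so that no difference from genes of like strand and CpG content was detectable with 77 genes.

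**Figure D1:**
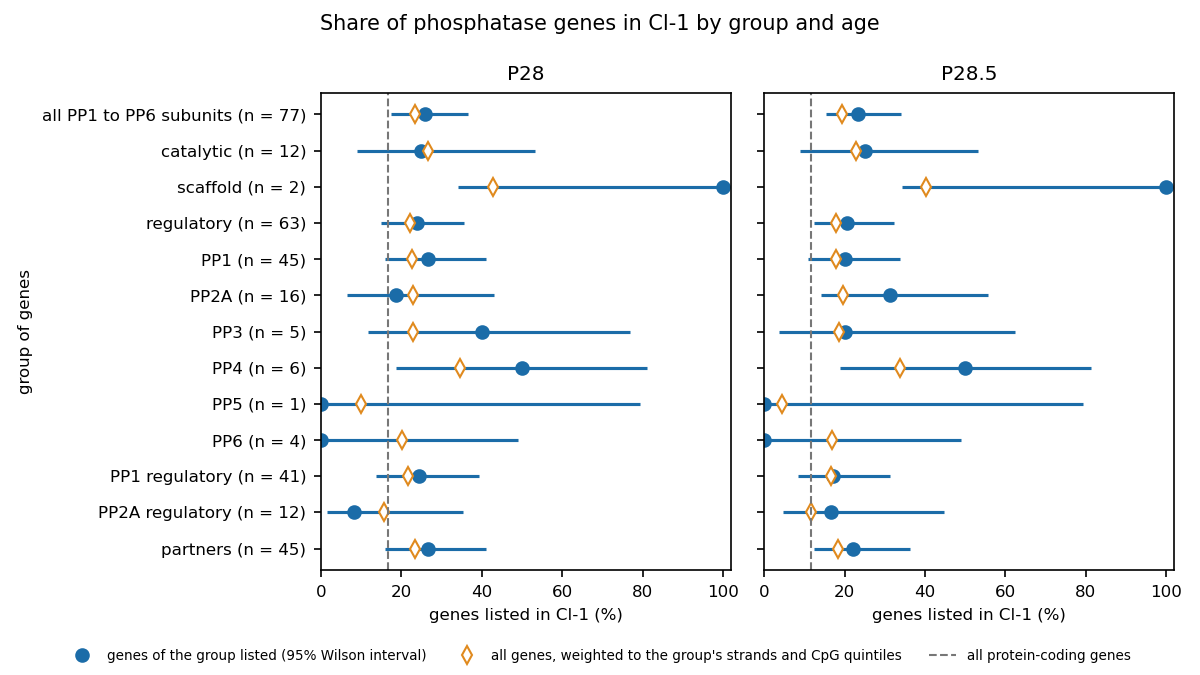
Share of genes listed at each age for groups of phosphatase genes, with 95% Wilson intervals as lines, the share of all protein-coding genes as a dashed line, and the share of all genes weighted to the strands and CpG quintiles of each group as diamonds. For all 77 subunit genes the weighted share (23.4% and 19.3%) lies inside the interval at both ages, and the PP6 genes and the PP5 gene are at 0.

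Plus-strand genes were listed more often than minus-strand genes, among the subunit genes and over all genes, and the listed positions differed by strand. Of all positions under the names of plus-strand protein-coding genes, 2796 of 5510 at P28 and 2453 of 4567 at P28.5 equalled the smaller coordinate of a transcript of that gene, which is its start. Under the names of minus-strand genes, 275 of 1098 and 16 of 416 equalled the smaller coordinate, which is there the 3′ end, and 1 and 3 equalled the larger coordinate alone, which is the start. Within 2000 bp of a 5′ end lay 46.4% of the minus-strand positions at P28 and 93.3% at P28.5, against 93.3% and 99.1% of the plus-strand ones. The coordinate read here thus seldom equalled the exact start of a minus-strand gene, and whether the end coordinate does was not examined. For the 37 minus-strand subunit genes the lack of a row does not show a lack of ARID2 at the start. Of 40 plus-strand subunit genes, the P28 list held 15 (37.5%) and the P28.5 list 17 (42.5%). The shares of all plus-strand protein-coding genes were 26.0% and 20.4%, and weighted to the CpG quintiles of these 40 genes they were 36.8% and 33.3%, within the intervals of the subunit genes. Of 37 minus-strand subunit genes, 5 were listed at P28 (13.5%), against 7.61% of all minus-strand genes, and 1 at P28.5 (2.70%), against 2.86%. Weighted to the CpG quintiles of these 37 genes, the shares were 8.92% and 4.12%. In the highest CpG quintile, 11 of 33 subunit genes were listed at P28, against 28.8% of all genes in that quintile, and 13 of 33 at P28.5, against 27.0%.

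**Figure D2:**
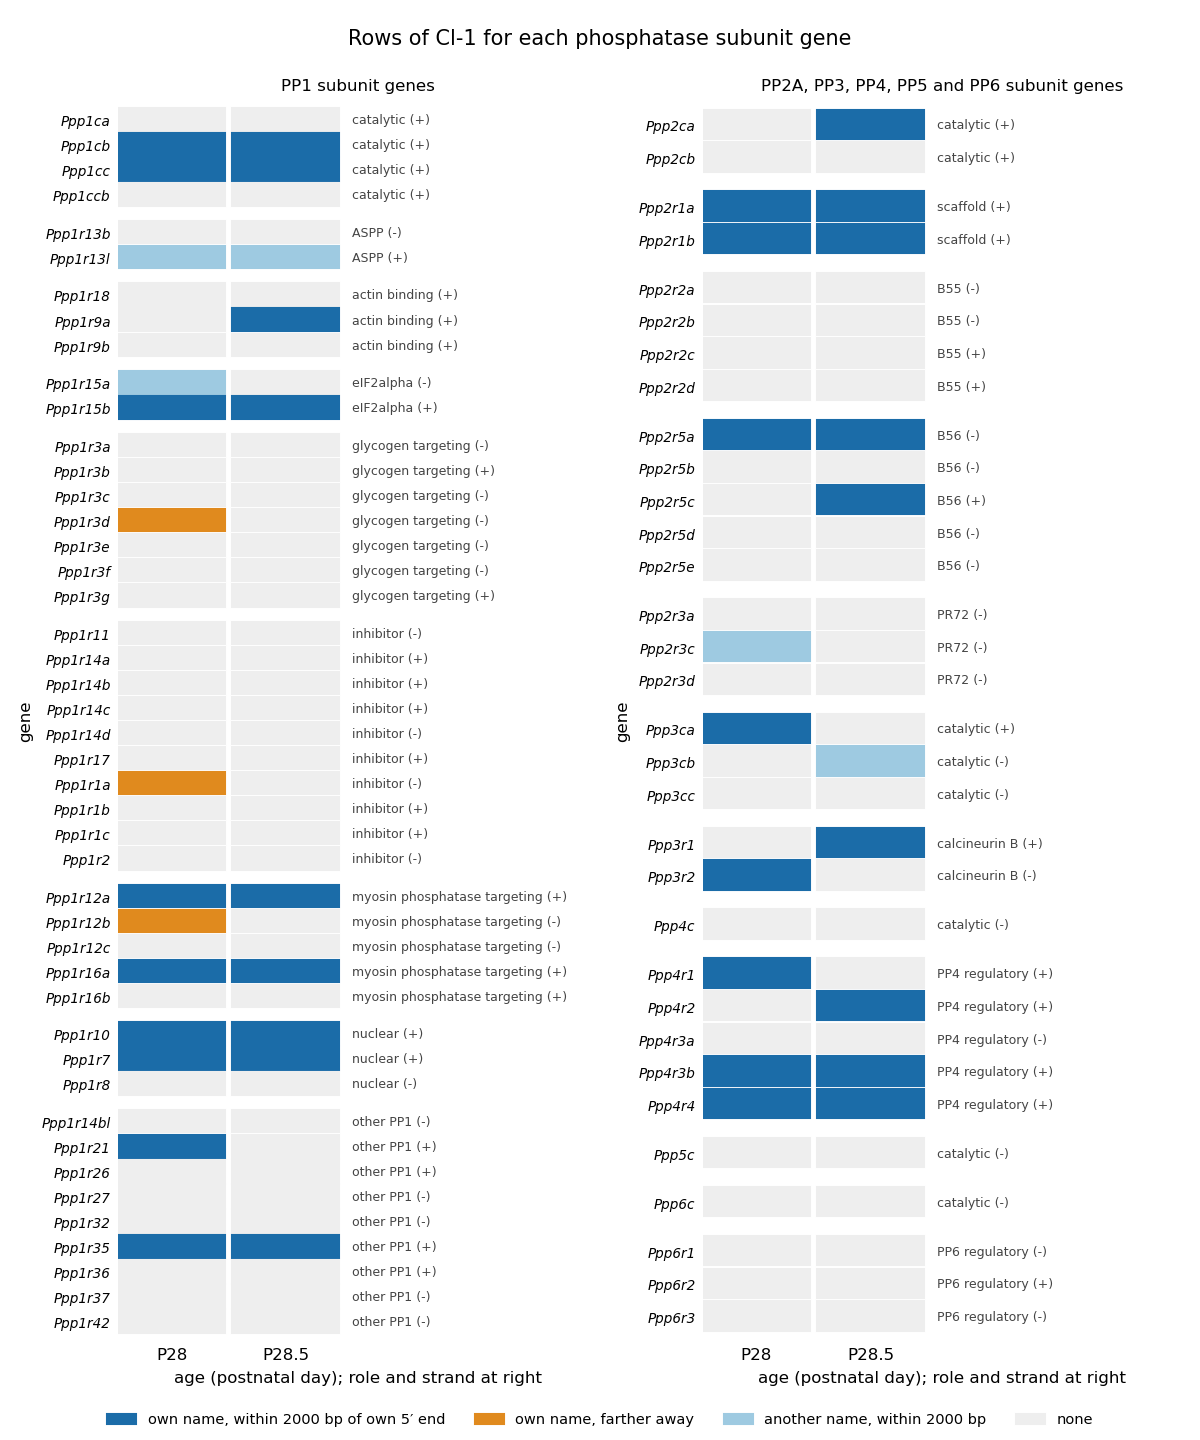
Every PP1 to PP6 subunit gene by age, ordered by phosphatase, class and role, with its role and strand at right. Dark blue marks a row with the gene's own name within 2000 bp of one of its annotated 5′ ends, orange a row with its name farther away, light blue a row with another gene's name within 2000 bp, and grey none of these. Orange appears at P28 alone, for Ppp1r3d, Ppp1r1a and Ppp1r12b.

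Of the 12 catalytic subunit genes, 3 were in Cl-1 at each age (interval 8.89% to 53.2%), and the weighted shares of all genes were 26.6% at P28 and 22.9% at P28.5. Ppp1cb and Ppp1cc were listed at both ages, Ppp3ca at P28 alone and Ppp2ca at P28.5 alone. All 4 are plus-strand genes, and 3 of the 7 plus-strand catalytic genes were listed at each age. The other 8 were listed at neither age: Ppp1ca, Ppp1ccb and Ppp2cb on the plus strand, and Ppp3cb, Ppp3cc, Ppp4c, Ppp5c and Ppp6c on the minus strand.

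The PP1 catalytic subunits are close relatives, and their genes divided into listed and unlisted ones. Ppp1cb (GeneID 19046), which encodes the subunit of myosin phosphatase, lies on chr5:32458848-32493713. At both ages it had 2 rows, at 32458848 and 32458970, which are its 2 annotated 5′ ends. Ppp1cc has 2 annotated 5′ ends, and their surroundings differ: the CpG ratio within 500 bp was 0.156 at the upstream end and 0.907 at the downstream end, beside which its rows lay. The rows were 21 bp before and 4 bp after that end at P28, and 4 bp after it at P28.5, in an exon outside the coding sequence. Ppp1cc was thus the 1 listed subunit gene in the lowest CpG quintile when the outermost 5′ end was taken, and its listed start is CpG-rich. Ppp1ccb (GeneID 434233; plus strand, chr7:119739910-119742244) is a second gene for a PP1 gamma subunit, with 1 annotated transcript of 2 exons. It was at neither age in Cl-1, and the closest rows, under the name of Eri2, lay 46597 bp (P28) and 54112 bp (P28.5) from its start. Ppp1ca (GeneID 19045; plus strand, chr19:4192174-4195419), which encodes the alpha subunit, was also unlisted, with a CpG ratio of 0.747 and the nearest listed TSS 66214 bp away at both ages.

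The promoter of Ppp1ccb is printed beside those of its listed relatives Ppp1cb and Ppp1cc, and that of the unlisted Ppp1ca is not printed. The 250 bases before an annotated start are printed 5′ to 3′ from the RefSeq promoters of GRCm38.p6, with each CpG in capitals. For Ppp1cb and Ppp1cc this start is the downstream annotated 5′ end, and the Ppp1cb window takes in the upstream end, 32458848. The windows lie on the plus strand, at chr5:32458720-32458969 for Ppp1cb, chr5:122158025-122158274 for Ppp1cc and chr7:119739660-119739909 for Ppp1ccb.
Ppp1cb: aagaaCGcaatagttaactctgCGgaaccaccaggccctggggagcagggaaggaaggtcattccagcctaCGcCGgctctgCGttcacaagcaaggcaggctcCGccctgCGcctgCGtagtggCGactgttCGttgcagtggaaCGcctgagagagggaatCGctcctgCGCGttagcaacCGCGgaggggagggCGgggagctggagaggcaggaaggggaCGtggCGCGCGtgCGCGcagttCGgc
Ppp1cc: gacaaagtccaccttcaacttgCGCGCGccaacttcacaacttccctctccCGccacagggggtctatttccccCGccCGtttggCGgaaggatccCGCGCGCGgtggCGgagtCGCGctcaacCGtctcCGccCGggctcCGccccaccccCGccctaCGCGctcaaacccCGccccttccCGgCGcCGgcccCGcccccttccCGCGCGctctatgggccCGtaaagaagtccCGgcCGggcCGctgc
Ppp1ccb: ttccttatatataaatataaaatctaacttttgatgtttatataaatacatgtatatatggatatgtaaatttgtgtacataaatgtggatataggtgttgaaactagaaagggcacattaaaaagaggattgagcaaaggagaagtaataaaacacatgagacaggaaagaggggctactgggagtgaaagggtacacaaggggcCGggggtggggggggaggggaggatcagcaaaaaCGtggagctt
These windows held 24 CpGs for Ppp1cb, 33 for Ppp1cc and 2 for Ppp1ccb, and their GC content was 65.2%, 72.0% and 38.4%. The median over 32851 promoters of the same length was 6 CpGs. In the wider window, which also takes in 500 bp of the gene, Ppp1ccb had a CpG ratio of 0.746 and Ppp1ca one of 0.747.

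For PP2A, the catalytic gene Ppp2ca (GeneID 19052) changed between the lists, and its relative Ppp2cb did not. Ppp2ca lies on the plus strand, chr11:52098824-52122749. A row at its start appeared in the later list alone, and in the earlier list the closest row, that of Cdkl3, lay 94603 bp off. Ppp2cb (GeneID 19053; plus strand, chr8:33599621-33619804) was listed at neither age although its CpG ratio of 0.943 was above the 0.843 of Ppp2ca. Its closest rows were those of Gtf2e2 at P28 (131903 bp) and Hmgb1-rs17 at P28.5 (82177 bp). The lists come from averaged libraries, and this change of 1 row was not tested against the variation between libraries, whose separate tracks were not analysed here.

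The scaffold subunit joins the catalytic and regulatory subunits of PP2A, and both scaffold genes, Ppp2r1a and Ppp2r1b, were in Cl-1 at both ages (2 of 2, interval 34.2% to 100%). The weighted share for genes of their strand and CpG quintiles was 42.9% at P28 and 40.2% at P28.5, within that interval. Ppp2r1a had 1 row at its annotated 5′ end at each age. Ppp2r1b (GeneID 73699; plus strand, chr9:50856896-50899325) has 5 annotated 5′ ends close together, and at each age it had 3 rows at 1 of them, 50856924. The promoter of Ppp2cb, the unlisted gene of the PP2A core, is not printed. Those of the listed core genes are printed in the same way, from chr11:52098574-52098823 for Ppp2ca, chr17:20945204-20945453 for Ppp2r1a and chr9:50856674-50856923 for Ppp2r1b, all on the plus strand.
Ppp2ca: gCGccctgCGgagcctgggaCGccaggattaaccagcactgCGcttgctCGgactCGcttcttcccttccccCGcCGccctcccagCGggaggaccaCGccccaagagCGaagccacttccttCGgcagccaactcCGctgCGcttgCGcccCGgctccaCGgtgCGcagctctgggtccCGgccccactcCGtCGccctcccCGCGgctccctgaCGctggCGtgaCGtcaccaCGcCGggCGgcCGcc
Ppp2r1a: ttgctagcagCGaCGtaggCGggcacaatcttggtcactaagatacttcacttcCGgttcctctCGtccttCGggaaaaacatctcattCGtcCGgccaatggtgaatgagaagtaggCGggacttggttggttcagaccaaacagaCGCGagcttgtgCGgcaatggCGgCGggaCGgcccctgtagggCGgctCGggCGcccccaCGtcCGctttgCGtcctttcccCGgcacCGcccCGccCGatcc
Ppp2r1b: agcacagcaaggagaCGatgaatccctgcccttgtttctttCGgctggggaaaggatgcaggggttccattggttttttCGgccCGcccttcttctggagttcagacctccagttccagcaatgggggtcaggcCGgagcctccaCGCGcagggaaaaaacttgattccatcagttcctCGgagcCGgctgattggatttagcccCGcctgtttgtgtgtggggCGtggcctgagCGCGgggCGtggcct
They held 30 CpGs for Ppp2ca, 25 for Ppp2r1a and 14 for Ppp2r1b, against an upper quartile of 16.0 over all promoters. The gene listed at P28.5 alone, Ppp2ca, therefore had more CpGs in this window than both scaffold genes, which were listed at each age.

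The 12 regulatory genes of PP2A fall into 3 families, which compete for the same core enzyme. In the B56 family, which shugoshin and the kinetochore recruit, 1 of 5 genes was listed at P28 and 2 of 5 at P28.5, against weighted shares of 17.2% and 13.4%. Ppp2r5a (minus strand, chr1:191351981-191397041) had 1 row at both ages, at 191397705, which is 664 bp before its 5′ end and equals no annotated transcript end. Ppp2r5c (plus strand, chr12:110447144-110583075) had 1 row at P28.5, at 110447179, which is 34 bp after an annotated 5′ end, while in the P28 list the closest row, that of Wdr20, was 251432 bp off. Ppp2r5b, Ppp2r5d and Ppp2r5e, all on the minus strand, were listed at neither age. None of the 4 genes of the B55 family (Ppp2r2a, Ppp2r2b, Ppp2r2c and Ppp2r2d), whose PP2A form opposes mitotic kinases, was in Cl-1 at either age, against weighted shares of 18.8% and 14.4%. None of the 3 genes of the PR72 family (Ppp2r3a, Ppp2r3c and Ppp2r3d) was listed either, against weighted shares of 9.34% and 4.82%. With so few genes, these families could not be told apart: the interval of the B56 family was 3.62% to 62.4% at P28, and that of the B55 family 0.00% to 49.0%.

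PP1 has 41 regulatory genes, of which 10 were listed at P28 (24.4%, interval 13.8% to 39.3%), and at P28.5 the count was 7 (17.1%, interval 8.53% to 31.3%). The weighted shares of all genes were 21.7% and 16.7%, within these intervals. The genes listed at both ages encode targeting subunits of myosin phosphatase, nuclear subunits, a subunit for the translation factor eIF2alpha and Ppp1r35. In the myosin phosphatase targeting group, 3 of 5 genes were listed at P28 (interval 23.1% to 88.2%) and 2 of 5 at P28.5 (interval 11.8% to 76.9%), and the weighted shares, 24.5% and 19.5%, lay within these intervals. Ppp1r12a (plus strand, chr10:108162092-108279985), the subunit that brings PP1 to myosin, had 1 row at P28, at 108162400 in a coding exon, 302 bp after a 5′ end. At P28.5 it had that row and 4 more rows at 108161831 and 108161832, the nearer of them 260 bp before its outermost 5′ end. Ppp1r16a, a membrane-bound member of the group (plus strand, chr15:76671643-76694919), had 5 rows at 3 positions at each age, from 23 bp before to 37 bp after its 5′ end. The 5′ end of the minus-strand gene Foxh1 lay 6 bp from the most upstream of these positions, so that the lists do not separate this pair of divergent starts. Ppp1r12b was listed at P28 alone, by 1 row inside an intron, 27870 bp from its nearest 5′ end. Ppp1r12c and Ppp1r16b were at neither age in Cl-1.

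Among the nuclear subunits, Ppp1r10 (the PNUTS protein, which acts in transcription termination) and Ppp1r7 (SDS22, an assembly factor and regulator of PP1) were listed at both ages, and Ppp1r8 (NIPP1, which acts in splicing and chromatin) at neither. The weighted shares for these 3 genes were 31.9% and 28.3%. Ppp1r10 (plus strand, chr17:35916512-35932283) had 1 row at each age, at 35917196, 1 of its 6 annotated 5′ ends. At each age 3 other listed positions within 2000 bp carried the name of Mrps18b, and a row of that name equalled an annotated 5′ end of Ppp1r10. At P28.5 such a row was at 35916787. The lists thus do not separate this pair of genes. Ppp1r7 (plus strand, chr1:93343610-93367616) had 1 row at each age, at 93343645, which is 17 bp after a 5′ end and 123 bp from that of the minus-strand gene Pask. Of the genes that direct PP1 to eIF2alpha, Ppp1r15b (plus strand, chr1:133131166-133139800), the constitutive subunit, had 1 row at its 5′ end at both ages. Ppp1r15a, the stress-induced subunit, is on the minus strand and had no row of its own at either age. The weighted shares for this pair were 28.8% and 27.0%.

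For the other PP1 groups no difference from like genes was detectable. Of 10 inhibitor genes, 1 was listed at P28 (interval 1.79% to 40.4%) and 0 at P28.5, which allows a share of up to 30.0%, against weighted shares of 18.6% and 12.6%. The listed gene was Ppp1r1a (inhibitor-1, minus strand, chr15:103530279-103538027), with rows at 103530837 and 103530838. These lay 7155 bp and 7154 bp into the gene from its nearest 5′ end, in an exon outside the coding sequence. Of 7 glycogen targeting genes, 1 was listed at P28 and 0 at P28.5, which allows a share of up to 42.9%, against weighted shares of 10.7% and 5.18%. This was Ppp1r3d (minus strand, chr2:178411206-178414463), whose row, by the coordinate read, was at the 3′ end of the gene. Of the 3 actin binding subunits, Ppp1r9a (neurabin; plus strand, chr6:4902872-5165661) was listed at P28.5 alone, by 1 row 7 bp after a 5′ end, and Ppp1r9b and Ppp1r18 at neither age, against weighted shares of 33.5% and 26.2% for the group. Neither of the 2 ASPP genes, Ppp1r13b and Ppp1r13l, had a row of its name (weighted shares 25.4% and 20.1%). Among 9 further PP1 regulatory genes, Ppp1r35 (plus strand, chr5:137778904-137780110), needed for centriole elongation, had 2 rows at each age, at its 5′ end and 14 bp after it. Ppp1r21 (plus strand, chr17:88530124-88588367), an endosomal protein, had 1 row at P28, at its 5′ end, and none at P28.5. The other 7 genes of that group were listed at neither age, and its weighted shares were 22.4% and 18.4%.

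Calcineurin (PP3) is the calcium-dependent phosphatase. Of its 5 genes, the P28 list held 2 and the P28.5 list 1, against weighted shares of 22.8% and 18.7%. None was listed at both ages, as 8.48% of all protein-coding genes were. Ppp3ca (plus strand, chr3:136669714-136937727) was in Cl-1 at P28 alone, with 7 rows at 3 positions. Of these, 3 rows lay at or 6 bp after an annotated 5′ end, 136670066, where the CpG ratio was 0.854. The other 4 rows were at 136942557, past the annotated end of the gene, 149738 bp from its nearest 5′ end, where the CpG ratio was 0.0742. Ppp3cb (minus strand, chr14:20499364-20546573) and the testis gene Ppp3cc (minus strand, chr14:70217864-70289536) had no row of their names at either age.

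The calcineurin B subunits, which bind calcium, were listed at opposite ages, 1 of 2 at each, against weighted shares of 26.6% and 24.4%. Ppp3r2 (minus strand, chr4:49678747-49681983), the testis gene, which lies inside Grin3a, had 1 row at P28, at 49682004, 21 bp before its 5′ end, while at P28.5 the closest row, that of Rnf20, was 49923 bp off. Ppp3r1 (plus strand, chr11:17159298-17200380), the widely used gene, had a row at its 5′ end in the P28.5 list, while in the P28 list the closest, that of Wdr92, was 52595 bp off. Their promoters, chosen for printing after the values were seen, are given as before, from chr11:17159048-17159297 on the plus strand for Ppp3r1 and chr4:49681984-49682233 on the minus strand for Ppp3r2.
Ppp3r1: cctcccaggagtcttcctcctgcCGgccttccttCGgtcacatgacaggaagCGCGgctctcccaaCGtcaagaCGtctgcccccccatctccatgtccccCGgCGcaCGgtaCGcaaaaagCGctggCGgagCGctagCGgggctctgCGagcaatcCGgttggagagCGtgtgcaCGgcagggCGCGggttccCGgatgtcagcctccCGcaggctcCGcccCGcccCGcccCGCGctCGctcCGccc
Ppp3r2: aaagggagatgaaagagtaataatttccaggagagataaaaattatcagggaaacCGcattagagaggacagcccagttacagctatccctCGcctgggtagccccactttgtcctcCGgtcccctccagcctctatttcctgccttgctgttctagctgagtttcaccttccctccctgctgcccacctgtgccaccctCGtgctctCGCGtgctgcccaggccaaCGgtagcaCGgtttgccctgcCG
Ppp3r1 held 29 CpGs and Ppp3r2 held 9, in windows with a GC content of 70.8% and 55.6%.

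PP4, which acts in DNA repair and at centrosomes, had 3 of 6 genes listed at each age (interval 18.8% to 81.2%), all of them regulatory. The weighted shares of all genes, 34.6% and 33.7%, lay within the interval. Ppp4r3b (plus strand, chr11:29172976-29220797) and Ppp4r4 (plus strand, chr12:103532250-103613839) were listed at both ages. Ppp4r3b had rows 41 bp and 69 bp before its 5′ end at both ages and a further row 386 bp before it at P28.5. Ppp4r4 had 7 rows at 3 positions at each age, 2 of them annotated 5′ ends. Ppp4r1 (plus strand, chr17:65782543-65841926) was listed at P28 alone, by 1 row at 65820150, which is 723 bp after an internal 5′ end where the CpG ratio was 0.236. Ppp4r2 (plus strand, chr6:100833620-100869934) was listed at P28.5 alone, by 2 rows at 100833634 and 100833638, where the ratio was 1.02. Ppp4r3a and the catalytic gene Ppp4c (chr7:126785866-126792557), both on the minus strand, were at neither age in Cl-1.

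No gene of PP5 or PP6 was listed at either age. Ppp5c (chr7:17004640-17027914), whose protein carries its regulatory domain in the same chain, is on the minus strand, and the weighted shares for such a gene were 9.87% and 4.56%. Of the PP6 genes, Ppp6c (chr2:39194369-39226349), Ppp6r1 and Ppp6r3 are on the minus strand and Ppp6r2 on the plus strand. For PP6, 0 of 4 genes has an interval of 0.00% to 49.0%, and the weighted share for genes of their strands and CpG quintiles was 20.1% at P28 and 17.0% at P28.5. A lower listing of PP6 was thus not detectable with 4 genes.

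No difference between catalytic genes and scaffold and regulatory genes was detectable. Of 65 scaffold and regulatory genes, the P28 list held 17 (26.2%, interval 17.0% to 38.0%) and the P28.5 list 15 (23.1%, interval 14.5% to 34.6%). The catalytic share, 3 of 12 at each age, lay within these intervals. At P28 and P28.5 the weighted shares were 22.8% and 18.6% for scaffold and regulatory genes, and 26.6% and 22.9% for catalytic genes. A difference between PP1 and PP2A was not detectable either, and their weighted shares were alike, at 22.7% and 17.8% for PP1 and 23.0% and 19.6% for PP2A. Of 45 PP1 genes, 12 were listed at P28 (26.7%, interval 16.0% to 41.0%), and at P28.5 the count was 9 (20.0%, interval 10.9% to 33.8%). Of 16 PP2A genes, 3 were listed at P28 (18.8%, interval 6.59% to 43.0%), and at P28.5 the count was 5 (31.2%, interval 14.2% to 55.6%). The order of the phosphatases turned between the ages, and the intervals overlapped at both. Among regulatory genes alone, PP2A had 1 of 12 at P28 (8.33%, interval 1.49% to 35.4%), and at P28.5 the count was 2 of 12 (16.7%, interval 4.70% to 44.8%), and these intervals overlapped those of the PP1 regulatory genes. The weighted shares for the PP2A regulatory genes were 15.8% and 11.6%.

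Across the ages, 13 subunit genes were listed at both (8.48% of all protein-coding genes were), which is 65.0% of the 20 at P28 and 72.2% of the 18 at P28.5. The genes listed at both ages were Ppp1cb, Ppp1cc, Ppp1r7, Ppp1r10, Ppp1r12a, Ppp1r15b, Ppp1r16a, Ppp1r35, Ppp2r1a, Ppp2r1b, Ppp2r5a, Ppp4r3b and Ppp4r4. Over all protein-coding genes, the shared genes were 50.5% of the P28 genes and 73.1% of the P28.5 genes. Listed at P28 alone were 7 genes, and 3 of these are on the plus strand, against 67.1% of the 1814 genes with that listing. Listed at P28.5 alone were 5 genes, Ppp1r9a, Ppp2ca, Ppp2r5c, Ppp3r1 and Ppp4r2, all on the plus strand, against 88.4% of the 681 genes with that listing. Of the subunit genes listed at a single age, 41.7% were thus at P28.5, against 27.3% over all genes. All 13 genes listed at both ages had at least 1 identical position in both lists, a count that was not made over all genes. Both single-age PP2A genes were at P28.5, and of 5 single-age PP1 genes 4 were at P28, counts too small for a comparison.

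For the subunit genes, rows more than 2000 bp from the start of the gene they name were in the P28 list alone. Under the names of the subunit genes there were 43 rows at 31 positions at P28 and 39 rows at 29 positions at P28.5, and 20 positions were in both lists. At P28, 11 positions equalled an annotated 5′ end of the gene and 22 lay within 50 bp of one, and at P28.5 these counts were 12 and 23. Within 2000 bp lay 26 of the 31 positions at P28 and all 29 at P28.5. The other 5 positions at P28 belonged to Ppp1r12b, Ppp1r1a, Ppp1r3d and Ppp3ca. The CpG ratio around these 5 was 0.0742 to 0.299, and around the 26 nearer ones 0.325 to 0.961, so that the ranges did not overlap. By gene, 17 of the 20 listed at P28 had a row of their name within 2000 bp of their own 5′ end, against 81.5% of all listed genes, and 18 of 18 at P28.5, against 98.1%. Of the subunit genes, 8 had 2 or more positions at P28, against 7.19% of all genes, and 7 at P28.5, against 5.68%.

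**Figure D3:**
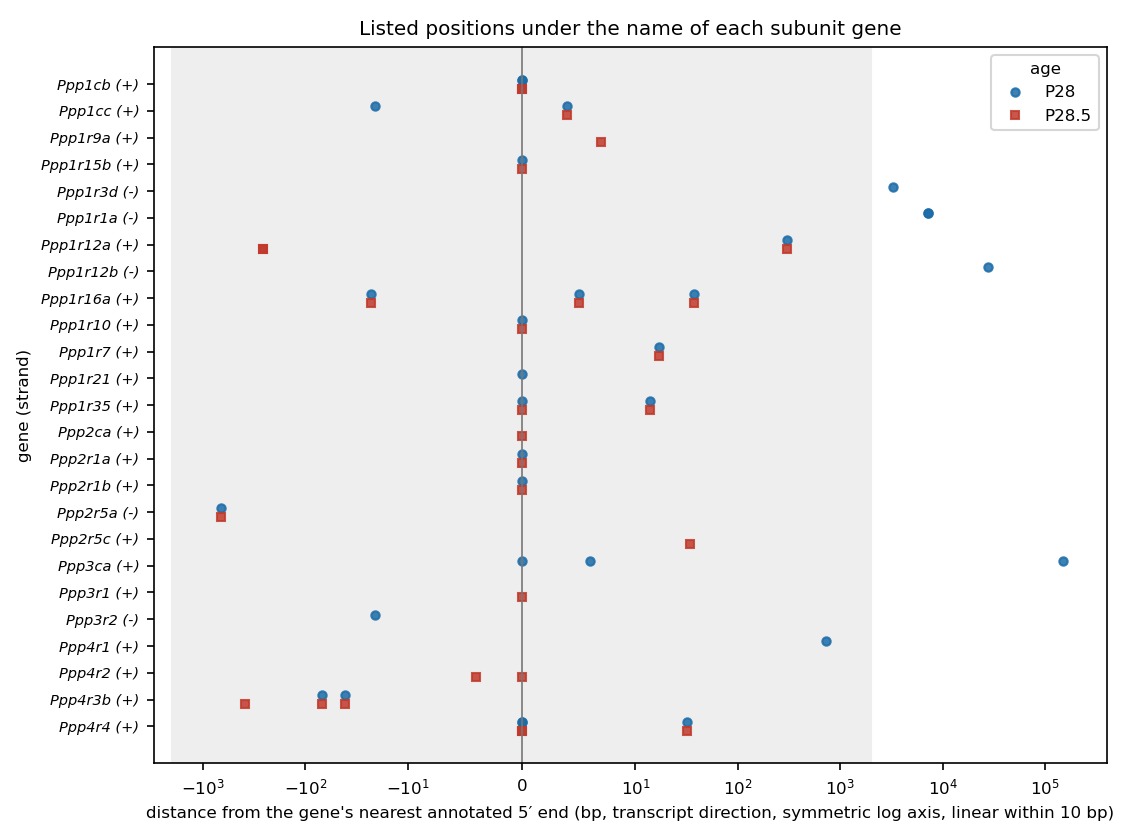
Distance of each listed position from the nearest annotated 5′ end of the gene it names, in bp along the transcript on a symmetric log axis, for the 25 subunit genes listed at P28 (circles) or P28.5 (squares). The grey band marks 2000 bp on either side. The points to the right of the band are all from P28, and the farthest is a position of Ppp3ca at 149738 bp.

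Rows under other names lay near the starts of some unlisted subunit genes. When any listed position within 2000 bp of an annotated start counted, under whichever name, 20 subunit genes were listed at P28, against 17.3% of all genes, and 20 at P28.5, against 14.8%. For Ppp1r13l (plus strand, chr7:19359724-19378540), an ASPP protein that inhibits p53, a row at 19359775 equalled 1 of its own 5′ ends at both ages and carried the name of Cd3eap, a minus-strand neighbour. For Ppp1r15a (minus strand, chr7:45522917-45526268), a row at 45526330 at P28, the start of the plus-strand gene Plekha4, was 62 bp away. For Ppp2r3c (minus strand, chr12:55280809-55303239), a row at 55302637 at P28 was 363 bp away and named 1110008L16Rik, a synonym of Prorp, which starts there on the plus strand. For Ppp3cb, a row at 20546293 at P28.5 was 275 bp away, at the start of the plus-strand long noncoding RNA gene 1810062O18Rik. In each of these cases the starts are divergent or overlapping, and the lists do not assign the enrichment to 1 gene of the pair.

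Subunit genes listed at both ages or at P28.5 alone had higher median CpG ratios than those listed at neither, and for those listed at P28 alone the order depended on the 5′ end taken. The median CpG ratio at the gene's 5′ end was 0.894 for the 13 genes listed at both ages, 0.882 for the 5 listed at P28.5 alone, 0.678 for the 7 listed at P28 alone and 0.695 for the 52 listed at neither. With the 5′ end of highest CpG ratio taken for each gene, the median was 0.749 for the genes listed at P28 alone and 0.738 for those listed at neither. Over all protein-coding genes the medians at the outermost 5′ end were 0.782, 0.773, 0.610 and 0.423 in the same order. The unlisted subunit genes were thus richer in CpG than unlisted genes at large. Of the 52, 18 were in the highest quintile, against 2792 of the 17432 protein-coding genes listed at neither age. Of all 77 subunit genes, 33 were in that quintile. Of those 18, 13 are on the minus strand, where the lack of a row does not show a promoter without ARID2. The highest-quintile genes on the plus strand that were listed at neither age were Ppp1r14b, Ppp1r26, Ppp2cb, Ppp2r2d and Ppp6r2, of which Ppp1r14b and Ppp1r26 were chosen for naming after their values were seen. Their signal was not analysed here, so that for these plus-strand genes too the lack of a row does not show a lack of ARID2.

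**Figure D4:**
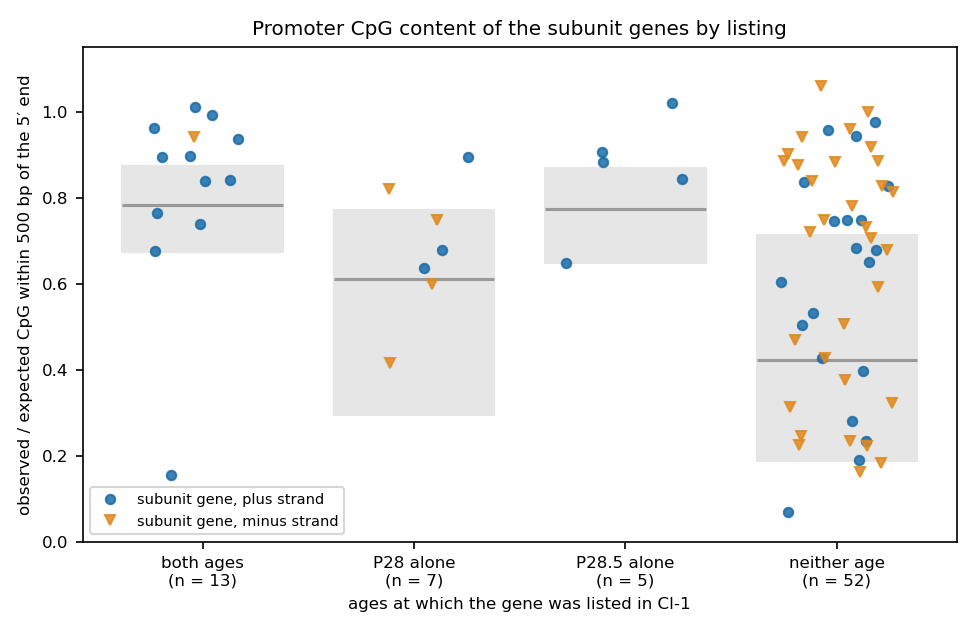
CpG ratio (observed over expected, 500 bp up- and downstream of the gene's outermost 5′ end) for the 77 subunit genes, by the ages at which they were listed, with circles for plus-strand and triangles for minus-strand genes. Grey boxes and lines are the quartiles and medians of all protein-coding genes with the same listing. The low point among genes listed at both ages is Ppp1cc (0.156), whose listed start is its downstream, CpG-rich 5′ end.

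Short motifs were searched on both strands in RefSeq promoters from 250 bases before to 50 bases after the start, which were at hand for 61 of the 77 subunit genes, among them 20 listed ones. The motif counts below are over genes, and the share of all 32851 promoters follows each. The CCAAT box (CCAAT) was in 21 of the 61 genes and in 7 of the 20 listed ones, Ppp2r1a and Ppp2r1b included, against 42.3% of all genes and 46.3% of all listed genes with a promoter (37.4% of promoters). The ETS core (CCGGAAG) was in 7 of 61 and in 4 listed genes, among them Ppp2r1a and Ppp4r3b, against 12.9% of all genes and 20.9% of listed genes (8.86% of promoters). A MYB core (AACGG) was in 13 of 61 and in 6 listed genes, among them Ppp1cc and Ppp3r2, against 21.4% of all genes and 29.2% of listed genes (17.4% of promoters). The cAMP response element (TGACGTCA) was in 4 of 61, of which Ppp2ca was listed and 3 were listed at neither age, against 2.54% of all genes and 4.60% of listed genes (1.79% of promoters). The NRF1 core (GCGCATGC) was in 2 of 61, with Ppp1r12a listed, against 3.94% of all genes and 7.76% of listed genes (2.71% of promoters). A TATA box (TATAAA) was in 8 of 61, with Ppp1r10 listed, against 14.8% of all genes and 9.41% of listed genes (13.6% of promoters). None of these letter strings lies within another, on either strand. No motif was shared by most listed subunit genes. A match describes the letters in the window and is not evidence of a bound factor.

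Of 45 other genes of phosphatase pathways, which encode targeting proteins, modifiers and inhibitors outside the Ppp symbols, 12 were listed at P28 (26.7%, interval 16.0% to 41.0%), and at P28.5 the count was 10 (22.2%, interval 12.5% to 36.3%), shares close to those of the subunit genes. The weighted shares for their strands and CpG quintiles were 23.3% and 18.3%, within these intervals. Of 8 genes for PP2A inhibitors or the kinase that activates them, 5 were listed at P28 (62.5%, interval 30.6% to 86.3%), and at P28.5 the count was 3 (37.5%, interval 13.7% to 69.4%). The weighted shares were 24.9% and 19.2%, and no difference from them is claimed, since the partner genes were picked by hand with earlier results of these data known. Set, Anp32a and Ensa were listed at both ages, each with a row at an annotated 5′ end. Arpp19, which like Ensa encodes an inhibitor of the B55 form of PP2A, had 3 rows at P28 and none at P28.5. Cip2a, an inhibitor of PP2A, had 1 row at P28, written under its older name, and none at P28.5. Mastl, the kinase that turns Ensa and Arpp19 into inhibitors, had no row, and a row under the name of Yme1l1 lay 481 bp from its 5′ end at both ages.

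Of 15 genes for PP1 targeting proteins, 4 were listed at each age (26.7%), against weighted shares of 26.1% and 21.8%. Knl1, the kinetochore scaffold that binds PP1, had 3 rows at each age, and Tox4, a partner of Ppp1r10, had 1. Nom1 and Phactr1 were listed at P28 alone, and Rrp1b and the kinesin gene Kif18a at P28.5 alone. Of 5 genes for modifiers of PP2A, Lcmt1, which methylates its catalytic subunit, was listed at both ages, and Ptpa, which activates it, at P28.5 alone, against weighted shares of 24.8% and 19.7% for the group. Rows under the name of C2cd3 lay 337 bp from the 5′ end of the PP2A methylesterase gene Ppme1 at both ages, and a row under the name of Gpr161 lay 188 bp from that of Tiprl at P28. Likewise, Cdca2, a PP1 targeting gene without a row, had one of Kctd9 at 243 bp at each age. Of 9 genes for PP2A targeting proteins, Sgo1 (a shugoshin) was listed at P28.5 alone, by 1 row 300 bp from a 5′ end. The P28 list held none, an upper limit of 33.3%, against weighted shares of 21.8% at P28 and 16.4% at P28.5. Sgo2a, the other shugoshin gene of this group, is on the plus strand and was listed at neither age. Its closest rows were 117161 bp (P28) and 977553 bp (P28.5) off, and it was named after its values were seen. Of 5 calcineurin partner genes, Akap5 and Cabin1 were listed at P28 alone, the latter by a row 12323 bp from its 5′ end, and the weighted shares of this group were 15.1% and 8.52%. None of the 3 ankyrin subunit genes of PP6 was listed at either age, against weighted shares of 20.8% and 18.2%.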

How the data were processed

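The deposited values are genomic positions and gene names of what the authors call TSSs in cluster-1. The first coordinate of each row was read, and for minus-strand genes some of these are 3′ ends. The authors obtained the lists by aligning to mm10, taking the log2 ratio to the control, averaging both ARID2 libraries and k-means clustering. The submitters' processing notes name Bowtie2, SAMtools and deepTools. The lists hold no count, depth or score. Names were matched to RefSeq symbols of GRCm38.p6, or to a synonym of 1 gene, and the 21774 protein-coding genes were the background. Shares have 95% Wilson intervals, and for a count of 0 in 7 or more genes 3 counts were allowed. Weighted shares average, over a group's genes, the share listed among all genes of the same strand and CpG quintile. No test was made on the lists, 1 per age. The counting was tested on simulated lists. Every catalytic and scaffold gene, every listed regulatory gene and every listed partner gene was named, and unlisted regulatory genes in groups of at most 5 or near another gene's row. Members and lists were chosen with earlier results of these data known. Roles of 10 members were added later. BRG1 libraries and signal tracks were not analysed here. Python 3.11.15, numpy 2.4.6, scipy 1.17.1, pandas 2.3.3 and matplotlib 3.10.9 were used.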

Additional observations from a re-analysis of the deposited data

How the results depend on the processing

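Of 92 alternative values, 74 stayed within the 95% interval of the value reported, or for the count listed at both ages within 1.5 times of it. These were 7 of 13 values with plus-strand genes alone, 1 of 13 with 2 or more positions, and all values with the symbol as written, with any position within 2000 bp or 500 bp of a 5′ end, with own name and position together, in the upper 3 CpG quintiles, and with the same position at both ages. Requiring 2 or more positions under a gene's name, a stricter rule that can only lower a share, gave at P28 and P28.5 10.4% and 9.09% for all subunit genes, 7.69% and 9.23% for scaffold and regulatory genes, 11.1% and 8.89% for PP1, 0.00% and 0.00% for PP2A, and 11.1% and 11.1% for partner genes. It gave 8.33% for catalytic genes at P28.5 and 5 genes listed at both ages. Over all protein-coding genes the same rule gave 7.19% at P28, 5.68% at P28.5 and 4.01% at both ages. Plus-strand genes alone gave 37.5% and 42.5% for all subunit genes. At P28.5 they gave 42.4% for scaffold and regulatory genes, 34.6% for PP1 and 57.1% for PP2A (4 of 7), and at P28 44.0% for partner genes. Shares of all plus-strand genes were higher too, at 26.0% (P28) and 20.4% (P28.5), and positions equal to a start were almost all on the plus strand. No replicate could be left out of the lists, because each was made from averaged libraries, and single tracks were not analysed here. No paired analysis was made, because each age gave 1 averaged list and the single libraries were not used here. The lists show no depth, and its effect on which TSSs are listed was not tested. Intervals cover counting error alone, and the groups of 1 to 16 genes have wide ones.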
